A study of Mus musculus with 6 samples.

Results

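Genes of the lipid droplet and of the control of lipolysis were read in mouse hepatocytes labelled senescent or healthy, freed by collagenase perfusion of the liver and purified on a density gradient. They are G0s2, Pnpla2, Abhd5, Lipe, Plin2, Plin4, Plin5, Cidea, Cideb and Cidec, 10 of the 32061 genes in the table, and were found by matching gene symbols to Ensembl identifiers. The list was chosen by function and from the senescent and healthy values of these same 6 libraries, which were already known. The difference between the groups is therefore given for these genes as a description without a test. Senescent samples (n = 3) came from AhCre+Mdm2fl/fl mice, in which a Cre recombinase under an inducible promoter that answers to aryl hydrocarbon receptor ligands can delete Mdm2, the gene of the ubiquitin ligase that restrains p53. Healthy samples (n = 3) came from mice without the transgene (AhCre-), whose Mdm2 alleles the sources used here do not give. Both groups received β-naphthoflavone, such a ligand, in corn oil by intraperitoneal injection (20 mg/kg, 48 h) and were 10 to 12 weeks old, so that ligand exposure was shared and Cre and loss of Mdm2 cannot be told apart. The labels do not tie each sample to an animal of its own, so a p-value measures only how far these samples spread, which may be technical.

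Hepatocytes keep triglyceride in lipid droplets, whose surface carries perilipins (Plin genes) and CIDE proteins. Stored fat is released by adipose triglyceride lipase (ATGL, encoded by Pnpla2), which cuts the first fatty acid from triglyceride. ABHD5, also called CGI-58, activates ATGL, and G0S2 binds ATGL and inhibits it. Hormone-sensitive lipase (Lipe) acts next, on diglyceride, and monoglyceride lipase (Mgll) ends the chain. PLIN2 is the main droplet coat of liver, PLIN5 holds ABHD5 and ATGL at the droplet and links droplets to mitochondria, and PLIN4 coats droplets mainly in fat and muscle. CIDE proteins promote the growth of droplets by transfer of lipid between them, and CIDEB, the liver member, also takes part in the lipidation of very low density lipoprotein (VLDL).

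The stretches of 250 bases before the transcription start are shown for G0s2 and Plin5, the tested members with the lowest senescent level relative to healthy, and for Abhd5 and Lipe, the pair with the groups apart in the other direction. They are RefSeq sequences on GRCm38.p6, 5′ to 3′ on the strand of the gene, and capitals mark matches to the motifs named after them.
G0s2 (GRCm38.p6 chr1:193273189-193273438, minus strand): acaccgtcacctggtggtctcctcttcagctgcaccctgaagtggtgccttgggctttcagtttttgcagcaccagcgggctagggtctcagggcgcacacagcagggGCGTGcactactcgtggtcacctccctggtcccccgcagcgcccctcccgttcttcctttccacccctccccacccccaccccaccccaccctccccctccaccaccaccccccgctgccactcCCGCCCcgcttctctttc
Plin5 (GRCm38.p6 chr17:56117549-56117798, minus strand): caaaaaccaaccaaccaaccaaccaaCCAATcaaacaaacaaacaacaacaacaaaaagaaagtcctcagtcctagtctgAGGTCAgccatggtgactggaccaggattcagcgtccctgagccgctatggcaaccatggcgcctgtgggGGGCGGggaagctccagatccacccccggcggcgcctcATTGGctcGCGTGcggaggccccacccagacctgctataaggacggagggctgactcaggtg
Abhd5 (GRCm38.p6 chr9:122351366-122351615, plus strand): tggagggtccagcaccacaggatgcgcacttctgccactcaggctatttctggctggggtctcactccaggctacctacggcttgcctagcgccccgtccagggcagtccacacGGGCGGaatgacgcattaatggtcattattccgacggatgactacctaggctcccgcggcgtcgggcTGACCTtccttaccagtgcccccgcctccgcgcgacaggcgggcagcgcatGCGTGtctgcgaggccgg
Lipe (GRCm38.p6 chr7:25395988-25396237, minus strand): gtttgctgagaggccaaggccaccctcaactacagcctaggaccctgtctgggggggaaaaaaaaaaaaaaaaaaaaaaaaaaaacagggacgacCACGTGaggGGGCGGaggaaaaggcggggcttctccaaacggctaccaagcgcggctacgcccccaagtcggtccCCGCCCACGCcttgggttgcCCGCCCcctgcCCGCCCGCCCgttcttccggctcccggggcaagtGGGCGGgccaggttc
Motifs were searched on both strands as the nuclear receptor half-site AGGTCA, the E-box CACGTG, the sterol element TCACNCCAC, the GC box GGGCGG, the CCAAT box CCAAT, the xenobiotic element core GCGTG and the p53 half-site decamer. Among all 32851 such stretches, 14.0% held AGGTCA, 6.02% CACGTG, 1.05% TCACNCCAC, 32.7% GGGCGG, 33.8% CCAAT, 28.2% GCGTG and 7.13% the p53 decamer. The G0s2 stretch held 1 GCGTG (142 bases before the start) and 1 GC box. That of Plin5 held 1 AGGTCA, 170 bases before the start, with 1 GC box, 2 CCAAT boxes and 1 GCGTG. In the Abhd5 stretch AGGTCA was found once, from 69 bases before the start, beside 1 GC box and 1 GCGTG. Plin5 and Lipe each have another annotated start, not shown. The Lipe stretch held 1 E-box, 6 GC boxes and 1 GCGTG, with a pair of GC boxes overlapping each other and another overlapping the GCGTG. The p53 decamer and TCACNCCAC were not among the letters of these 4 windows. A match is a description of letters, not of a bound site.

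Total counts were 29992707 to 32210591 in senescent and 28799392 to 33267299 in healthy libraries. Levels are CPM, read counts scaled to a common library total, after TMM scaling, which equalises libraries on the bulk of their genes. Of the 32061 genes, 12949 had enough counts to be tested, and the median log2 fold change over them was 0.01, or 0.33 when libraries were scaled by total library size alone. Mdm2, read first, had 465, 463 and 501 CPM in the 3 senescent libraries, against 19.03, 22.73 and 21.99 CPM in the 3 healthy libraries. The log2 fold change was 4.49 ± 0.14 (edgeR adjusted p = 4.3e-07), and since the count spans the whole gene it does not check the deletion. Cdkn1a, the p53 target that encodes the cell cycle inhibitor p21, averaged 717 ± 60.0 CPM in senescent and 35.6 ± 16.98 CPM in healthy libraries (SD, n = 3 each; log2 fold change 4.33 ± 0.34, edgeR adjusted p = 4.4e-05). In bulk RNA fewer cells of a type and less RNA per cell cannot be told apart.

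Transcripts of G0s2, an ATGL inhibitor, were low and those of the activator Abhd5 high in senescent hepatocytes. Faf2, whose product also restrains ATGL, was not lower (log2 fold change 0.36, given with its limits below). Protein levels, ATGL activity and stored fat were not read here. G0s2 (ENSMUSG00000009633; GRCm38 chromosome 1, 193272161 to 193273217) had 3.04, 1.17 and 0.926 CPM in the senescent libraries (replicates 1, 2 and 3, as in every triplet that follows), against 64.4, 37.9 and 78.9 CPM in the healthy libraries. These rest on 181 counts over the senescent and 5120 counts over the healthy libraries, and the groups lie far apart. G0s2 lies within the span of Lamb3 on the opposite strand and shares 0 exonic bases with it, and Lamb3 had 0.926 to 1.52 CPM in senescent and 3.15 to 4.18 CPM in healthy libraries. The log2 fold change, senescent minus healthy, was -5.13 ± 0.46 (SE; 35.1-fold lower), and -5.82 without senescent replicate 1, which lay 3.28-fold above replicate 3, the lowest of its group. Abhd5 (ENSMUSG00000032540; chromosome 9, 122351608 to 122381524) had 93.1, 101.8 and 111 CPM in the senescent libraries, against 23.6, 36.2 and 29.0 CPM in the healthy libraries. Every senescent value exceeded every healthy value, by a log2 fold change of 1.79 ± 0.17 (3.45-fold higher). An antisense gene, A730085K08Rik, shares 950 exonic bases with Abhd5. It is not among the genes counted, so its level could not be read.

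Pnpla2 and Lipe, the lipase genes among the 10, had smaller fold changes than G0s2 and Abhd5. Pnpla2 (ENSMUSG00000025509; chromosome 7, 141455198 to 141460743) had 44.6, 52.7 and 37.7 CPM in the senescent libraries, against 61.3, 64.6 and 68.4 CPM in the healthy libraries. The groups did not overlap, and the log2 fold change was -0.53 ± 0.14. It was -0.22 with total library size, -0.49 without senescent replicate 1 and -0.38 without senescent replicate 3. Lipe (ENSMUSG00000003123; chromosome 7, 25379527 to 25398710) had 28.5, 34.4 and 30.9 CPM in the senescent libraries, against 16.4, 14.4 and 11.9 CPM in the healthy libraries, again without overlap. Its log2 fold change was 1.14 ± 0.14 (2.20-fold higher). The antisense gene 4732471J01Rik shares 918 exonic bases with Lipe and had 22 senescent and 18 healthy counts in all.

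**Figure D1:**
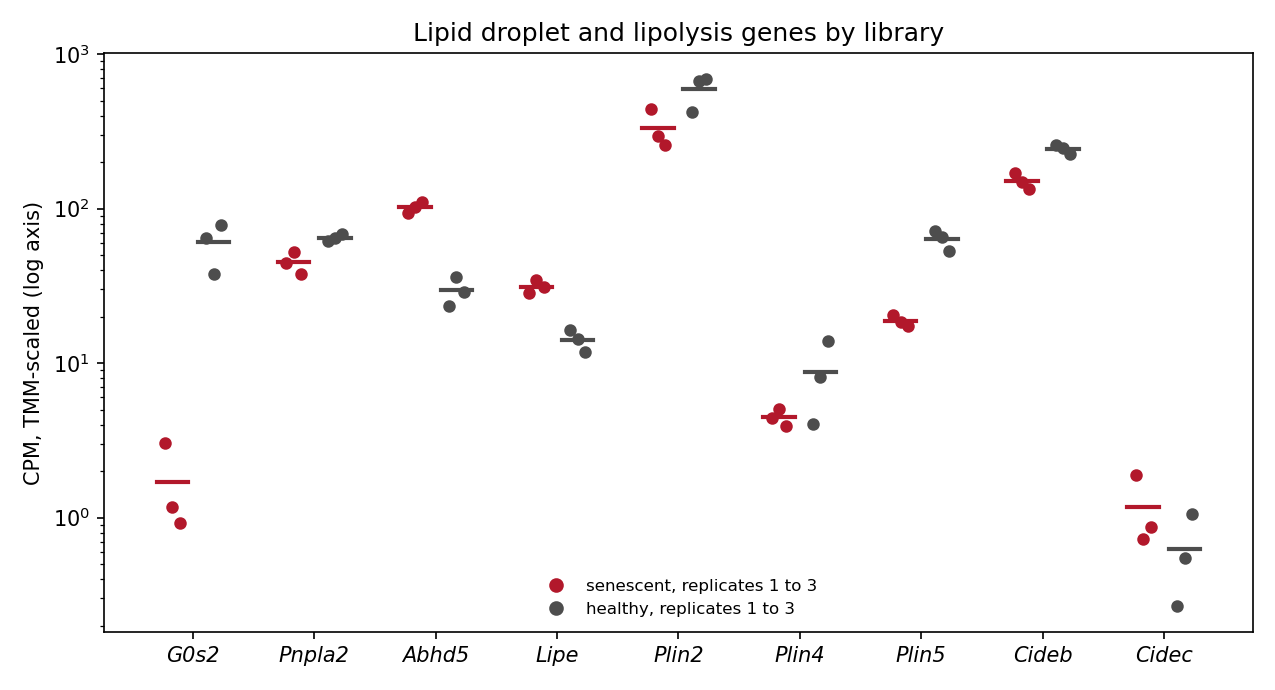
CPM of the 9 members with more than a single read, on a log axis, with 3 senescent libraries (red, left) and 3 healthy libraries (grey, right) per gene and bars at the group means. G0s2 lies at 0.926 to 3.04 CPM in senescent and 37.9 to 78.9 CPM in healthy libraries, while Abhd5 and Lipe lie higher in all senescent libraries.

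Ratios between transcripts of the same library do not depend on how libraries are scaled. In CPM per kb of exonic length, G0s2 stood to Pnpla2 at 0.236, 0.0767 and 0.0853 in the senescent libraries, against 3.64, 2.04 and 4.002 in the healthy libraries. G0s2 transcripts thus outnumbered those of Pnpla2 per length in each healthy library and were fewer in each senescent one. Abhd5 stood to Pnpla2 at 1.06, 0.980 and 1.495 in the senescent libraries, against 0.195, 0.284 and 0.215 in the healthy libraries. Lipe stood to Pnpla2 at 0.328, 0.335 and 0.422 in the senescent libraries, against 0.137, 0.114 and 0.0891 in the healthy libraries. The ratio of Abhd5 to G0s2 was 4.48, 12.8 and 17.5 in senescent libraries, against 0.0535, 0.140 and 0.0538 in healthy libraries. The ratio of Abhd5 to Plin5, whose product binds ABHD5 at the droplet, was 1.60, 1.93 and 2.23 in senescent libraries, against 0.115, 0.194 and 0.191 in healthy libraries. None of these ratios overlapped between groups, and each uses genes chosen with their values known.

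**Figure D2:**
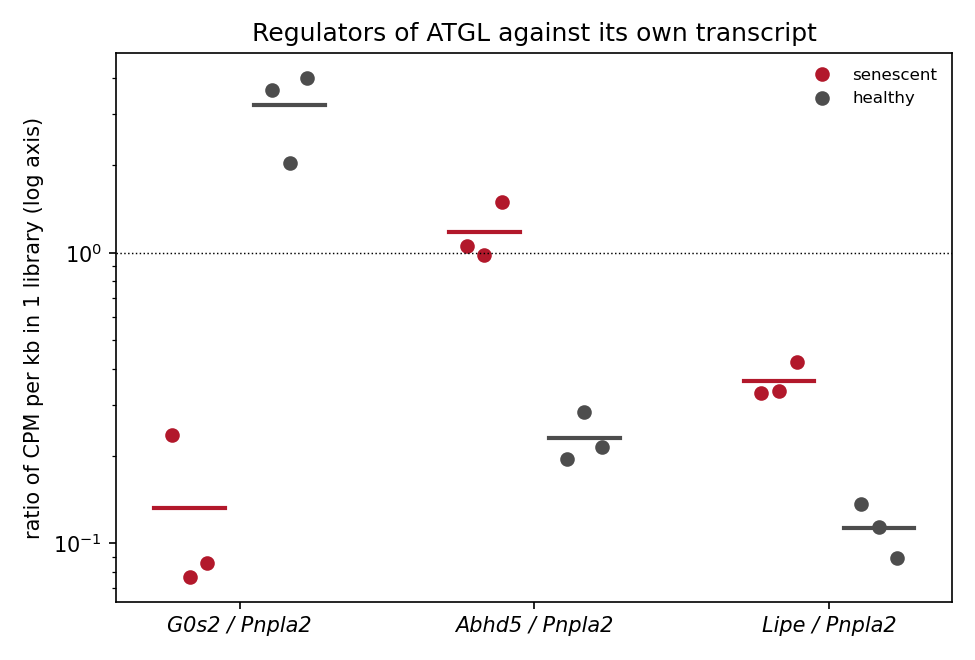
Ratio of G0s2, Abhd5 and Lipe to Pnpla2 in CPM per kb within each library, on a log axis, with senescent libraries in red (left), healthy libraries in grey (right), bars at the means and a dotted line at 1. G0s2 exceeds Pnpla2 in the 3 healthy libraries, at 2.04 to 4.002, and Abhd5 is near Pnpla2 in the senescent ones, at 0.980 to 1.495.

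Among the perilipin genes, Plin5 was lower in every senescent library, Plin2 was lower on average with overlap, and Plin4 was low in both groups and spread widely among healthy libraries. Plin5 (ENSMUSG00000011305; chromosome 17, 56111601 to 56117596) had 20.4, 18.5 and 17.5 CPM in the senescent libraries, against 72.0, 65.3 and 53.3 CPM in the healthy libraries. All senescent values were lower, with a log2 fold change of -1.76 ± 0.14 (3.38-fold lower). Plin2 (ENSMUSG00000028494; chromosome 4, 86648386 to 86670060) had 441, 295 and 260 CPM in the senescent libraries, against 422, 668 and 688 CPM in the healthy libraries. Senescent replicate 1 lay above healthy replicate 1, so the groups overlapped, and the log2 fold change was -0.84 ± 0.25. It was -0.53 with total library size, and -1.07 to -0.65 on leaving out single libraries, lowest without senescent replicate 1. Plin4 (ENSMUSG00000002831; chromosome 17, 56100591 to 56109803), the neighbour of Plin5, had 4.41, 5.04 and 3.94 CPM in the senescent libraries, against 4.04, 8.17 and 13.9 CPM in the healthy libraries. The healthy libraries spread 3.44-fold and reached into the senescent range, and the log2 fold change was -0.96 ± 0.38. It was -1.31 without healthy replicate 1 and -0.45 without healthy replicate 3. Plin4 shares 17 exonic bases with Hdgfl2.

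The make-up of the perilipin transcripts differed mainly in Plin5 and Plin3. As a share of the summed perilipin level per kb, Plin5 held 6.66%, 8.31% and 8.82% in senescent libraries, against 20.6%, 13.3% and 10.9% in healthy ones. Plin2 held 77.9% to 85.5% in senescent and 71.7% to 83.4% in healthy libraries, so its share overlapped. Plin3, the ubiquitous perilipin, is no member of the list and held 7.30%, 12.4% and 12.6% in senescent libraries, against 7.32%, 5.42% and 4.73% in healthy ones, overlapping through senescent replicate 1. Its own level was 40.6 to 50.2 CPM in senescent and 42.1 to 48.4 CPM in healthy libraries (log2 fold change -0.01 ± 0.12, edgeR adjusted p = 0.96). Set against Plin2 in the same library, Plin5 stood at 0.0778, 0.106 and 0.113 per kb in senescent libraries, against 0.288, 0.165 and 0.131 in healthy ones, a gap that narrows to senescent replicate 3 and healthy replicate 3. Plin1, the coat of fat cell droplets, had 0 counts in all 6 libraries, under a floor set at 3 counts per library, or 0.0837 to 0.117 CPM. This floor is a fixed setting, not the Poisson interval used for Cidea below.

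**Figure D3:**
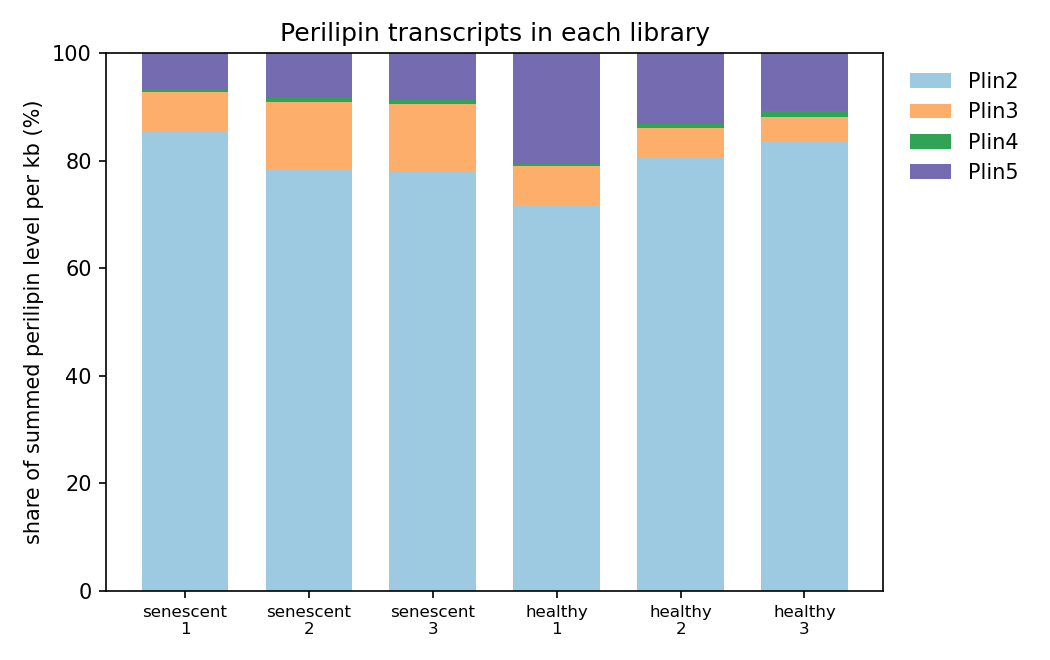
Share of each perilipin gene in the summed perilipin level (CPM per kb of exonic length) in each library, as stacked bars from 0 to 100%, senescent libraries on the left. Plin5 takes 6.66% to 8.82% of the level in senescent and 10.9% to 20.6% in healthy libraries.

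Of the CIDE genes, Cideb was the abundant one. Cideb (ENSMUSG00000022219; chromosome 14, 55754050 to 55758458) had 169, 149 and 134 CPM in the senescent libraries, against 258, 245 and 227 CPM in the healthy libraries. The groups were apart, with a log2 fold change of -0.69 ± 0.13, or -0.38 with total library size. Nop9, on the opposite strand, shares 1136 of the 1488 exonic bases of Cideb, and the sources used here do not give the strand setting of the counting. Nop9 had 20.2 to 24.0 CPM in senescent and 16.2 to 17.9 CPM in healthy libraries. What the overlap adds to or takes from the Cideb counts was not tested. Cidec (ENSMUSG00000030278; chromosome 6, 113424634 to 113435760), known as FSP27 in fat cells and fatty liver, had 68, 25 and 30 counts (1.90, 0.729 and 0.868 CPM) in the senescent libraries, against 8, 14 and 30 counts (0.270, 0.545 and 1.06 CPM) in the healthy libraries. As a share of the summed CIDE level per kb, Cideb held 99.1% to 99.6% in senescent and 99.6% to 99.9% in healthy libraries, nearly all the rest being Cidec. The groups of Cidec overlapped, and its log2 fold change of 0.90 ± 0.55 was 0.38 without senescent replicate 1 and 1.52 without healthy replicate 3. The ratio of Cideb to Plin2 per kb was 0.903, 1.19 and 1.22 in senescent libraries, against 1.44, 0.866 and 0.780 in healthy libraries, with overlap. Cidea (ENSMUSG00000024526; chromosome 18), known from brown fat, had 1 count in senescent replicate 3 and 0 counts in the 5 other libraries. The single count allows at most 0.0533 CPM over the senescent libraries (upper end of the exact 95% Poisson interval). By the same interval, 0 counts allow at most 0.0441 CPM over the 3 healthy libraries summed. Both limits cover counting error only, and the reads were too few to test.

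Per kb of exonic length, the order of the 10 genes in senescent libraries was Cideb (101 ± 11.8 CPM per kb, SD, n = 3), Plin2 (94.5 ± 27.4), Abhd5 (17.1 ± 1.51), Pnpla2 (14.9 ± 2.49), Plin5, Lipe, G0s2 (1.96 ± 1.33), Plin4 (0.772 ± 0.0960), Cidec and Cidea. In healthy libraries the order was Plin2 (169 ± 42.3 CPM per kb, SD, n = 3), Cideb (164 ± 10.3), G0s2 (69.4 ± 23.9), Plin5 (30.5 ± 4.54), Pnpla2 (21.5 ± 1.18), Abhd5 (4.97 ± 1.06), Lipe, Plin4, Cidec and Cidea. G0s2 thus ranked 7 in senescent and 3 in healthy libraries, and Abhd5 ranked 3 in senescent and 6 in healthy libraries. Neighbours whose libraries overlapped were Cideb and Plin2, Abhd5 and Pnpla2, and Plin4 and Cidec in senescent cells, against Plin2 and Cideb, and Lipe and Plin4, in healthy cells.

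In the fit over all genes, 9 of the 10 members had enough counts and 7 passed an adjusted p of 0.05, 2 of them higher and 5 lower in senescent cells, where 41.1% of all tested genes passed, 20.4% higher and 20.7% lower. The groups did not overlap for 6 of these 9, against 54.0% of all tested genes. The list was chosen with this contrast in view, so nothing is read from its counts. With total library size 2 members were higher and 3 lower, where 4861 of all 12949 tested genes were higher and 1285 lower.

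**Figure D4:**
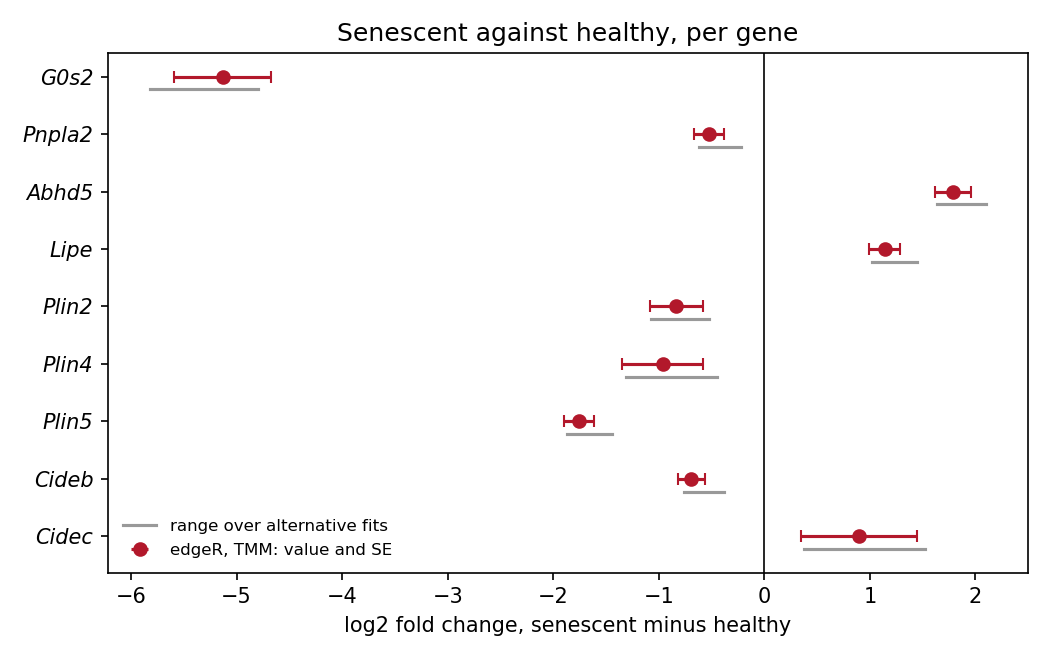
Log2 fold change of each member with its SE (red, edgeR with TMM scaling, senescent minus healthy) and the range over 12 or 13 alternative fits (grey). G0s2 at -5.13 and Abhd5 at 1.79 are the ends of the range, and the value of no gene crosses 0 in those fits.

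Genes like G0s2 over the 6 libraries were sought among tested genes of at least 10 CPM on average. Genes with only a predicted or clone-type name, such as Gm or Rik names, were left out. By the root mean square difference of centred log2 CPM, the 5 most alike were Hao2 (0.768), Csad (0.853), Sult2a5 (0.895), Sult2a1 (0.964) and Acot3 (0.971). Hao2 encodes a peroxisomal hydroxyacid oxidase and had 0.335, 0.525 and 0.0579 CPM in the senescent libraries, against 25.5, 12.2 and 25.2 CPM in the healthy libraries. Csad, of taurine synthesis, had 13.1, 10.0 and 12.1 CPM in the senescent libraries, against 151, 338 and 261 CPM in the healthy libraries, where G0s2 was lowest in healthy replicate 2 and Csad highest. Acot3, a peroxisomal acyl-CoA thioesterase gene, had 4.52, 1.60 and 1.59 CPM in the senescent libraries, against 98.7, 48.1 and 19.1 CPM in the healthy libraries. The Sult2a genes have near-identical copies that can share reads. The measure takes in the gap between the groups and is a description over 6 libraries.

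The next list and those that follow it were chosen with earlier results of these data known, so their counts are a description. Of 34 genes of other droplet proteins and neutral lipases 32 were tested. Of these, 13 fell, 3 rose and 16 did not pass (edgeR's quasi-likelihood test, Benjamini-Hochberg adjusted). Among all tested genes, 20.7% fell and 20.4% rose. With total library size the split in the list was 8 higher and 6 lower, where 4861 of all 12949 tested genes rose and 1285 fell. The list had a median log2 fold change of -0.24, or 0.07 with total library size. Mgll, which ends the lipolytic chain, had 27.9 ± 9.70 CPM in senescent and 172 ± 22.4 CPM in healthy libraries (SD, n = 3 each), a log2 fold change of -2.63 ± 0.25 (edgeR adjusted p = 0.00012). Pnpla3, a close relative of Pnpla2 that binds ABHD5, had 1.11 ± 0.0421 CPM in senescent and 7.95 ± 3.77 CPM in healthy libraries, a log2 fold change of -2.84 ± 0.34 (edgeR adjusted p = 0.00045). Ces1e fell too (log2 fold change -2.08 ± 0.21, edgeR adjusted p = 0.00018), but belongs to a cluster of similar carboxylesterase genes that can share reads. Bscl2, which encodes seipin, the protein that shapes droplets where they bud from the endoplasmic reticulum, rose to 131 ± 4.598 CPM in senescent libraries, against 38.3 ± 4.43 CPM in healthy ones (log2 fold change 1.77 ± 0.12, edgeR adjusted p = 2.2e-05). Faf2, whose product brings the segregase VCP to droplets and restrains ATGL, rose by a log2 fold change of 0.36 ± 0.11 (edgeR adjusted p = 0.029), a call lost on leaving out any senescent library, healthy replicate 1 or healthy replicate 2 (edgeR adjusted p = 0.059 to 0.10). Without senescent replicate 3, 10 genes of this list passed, 1 higher and 9 lower, where over all genes 1836 rose and 1489 fell.

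Receptors and kinases that govern lipolysis moved in both directions. Of 24 tested signalling genes of 25, 9 rose, 6 fell and 9 did not pass, with a median log2 fold change of 0.15. Among all tested genes, 20.4% rose and 20.7% fell. Adrb3, the beta-adrenergic receptor gene known from fat cells, had 16.1, 18.3 and 14.7 CPM in the senescent libraries, against 3.40, 4.05 and 2.05 CPM in the healthy libraries (log2 fold change 2.37 ± 0.23, edgeR adjusted p = 0.00015). Senescent and healthy libraries did not overlap for Adrb3. Among the falls, Irs2, an insulin receptor substrate gene, had 11.7 ± 1.59 CPM in senescent and 33.6 ± 12.7 CPM in healthy libraries (log2 fold change -1.52 ± 0.26, edgeR adjusted p = 0.0026). Pde3b, the phosphodiesterase through which insulin lowers cyclic AMP, had a log2 fold change of -0.61 ± 0.11 (edgeR adjusted p = 0.0038) and the insulin signalling kinase gene Akt1 one of -0.51 ± 0.11 (edgeR adjusted p = 0.0069). Both calls were lost when libraries were scaled by their totals (edgeR adjusted p = 0.082 and 0.19), which gave 11 rises and 1 fall in the list and a median of 0.46. That scaling gave 4861 rises and 1285 falls among all 12949 tested genes.

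Among 24 transcription factors and coactivators of droplet genes, all tested, 9 fell, 4 rose and 11 did not pass. Over all tested genes, 20.7% fell and 20.4% rose. With total library size the split in the list was 5 lower and 9 higher, where 1285 of all 12949 tested genes fell and 4861 rose. The list had a median log2 fold change of -0.25, or 0.06 with total library size. Cebpa, a factor of hepatocyte and fat cell identity, had 144 ± 11.0 CPM in senescent and 398 ± 44.5 CPM in healthy libraries (log2 fold change -1.47 ± 0.13, edgeR adjusted p = 1e-04). Creb3l3, the fasting factor CREBH, had a log2 fold change of -1.16 ± 0.21 (edgeR adjusted p = 0.003) and the coactivator gene Ppargc1b one of -2.31 ± 0.30 (edgeR adjusted p = 7e-04). Esrra, an orphan receptor of mitochondrial genes, rose to 70.5 ± 2.08 CPM in senescent libraries, against 23.9 ± 10.5 CPM in healthy ones (log2 fold change 1.56 ± 0.27, edgeR adjusted p = 0.0026). Nr3c1, the glucocorticoid receptor gene, rose by a log2 fold change of 0.49 ± 0.11 (edgeR adjusted p = 0.0098). Ppara, outside the rule for named genes and given because G0s2 and several Plin genes are known targets of PPAR-alpha, had 61.2, 50.3 and 40.8 CPM in the senescent libraries, against 48.6, 73.4 and 110 CPM in the healthy libraries, with overlap (edgeR adjusted p = 0.11).

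Genes known as PPAR-alpha targets, apart from those in the list of 10, fell or did not pass. Of 20, all tested, 15 fell, 0 rose and 5 did not pass, with a median log2 fold change of -0.94 (-0.63 with total library size, 14 falls and 0 rises). Over all tested genes, 20.7% fell and 20.4% rose. With total library size, 1285 of all 12949 tested genes fell and 4861 rose. Fabp1, the liver fatty acid binding protein gene, had 630, 317 and 282 CPM in the senescent libraries, against 2579, 3568 and 2674 CPM in the healthy libraries (log2 fold change -2.84 ± 0.33, edgeR adjusted p = 0.00034). The oxidation genes Ehhadh and Hadhb had log2 fold changes of -1.33 ± 0.14 and -0.94 ± 0.11 (edgeR adjusted p = 0.00026 and 0.00036). Of 28 triglyceride synthesis and VLDL genes 26 were tested, and 15 fell, 1 rose and 10 did not pass, beside the same shares of all tested genes. The median of this list was -0.68 (-0.37 with total library size, 11 falls and 4 rises). Acacb, the acetyl-CoA carboxylase of mitochondria, had 61.5 ± 13.6 CPM in senescent and 335 ± 77.1 CPM in healthy libraries (log2 fold change -2.44 ± 0.23, edgeR adjusted p = 0.00011). Acsl1, which activates fatty acids, and the elongase gene Elovl6 had log2 fold changes of -1.59 ± 0.15 and -1.74 ± 0.21 (edgeR adjusted p = 0.00012 and 0.00046). The riser was Lpin3, a phosphatidate phosphatase gene, with 8.09 ± 0.526 CPM in senescent and 3.78 ± 0.684 CPM in healthy libraries (log2 fold change 1.09 ± 0.18, edgeR adjusted p = 0.0018).

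**Figure D5:**
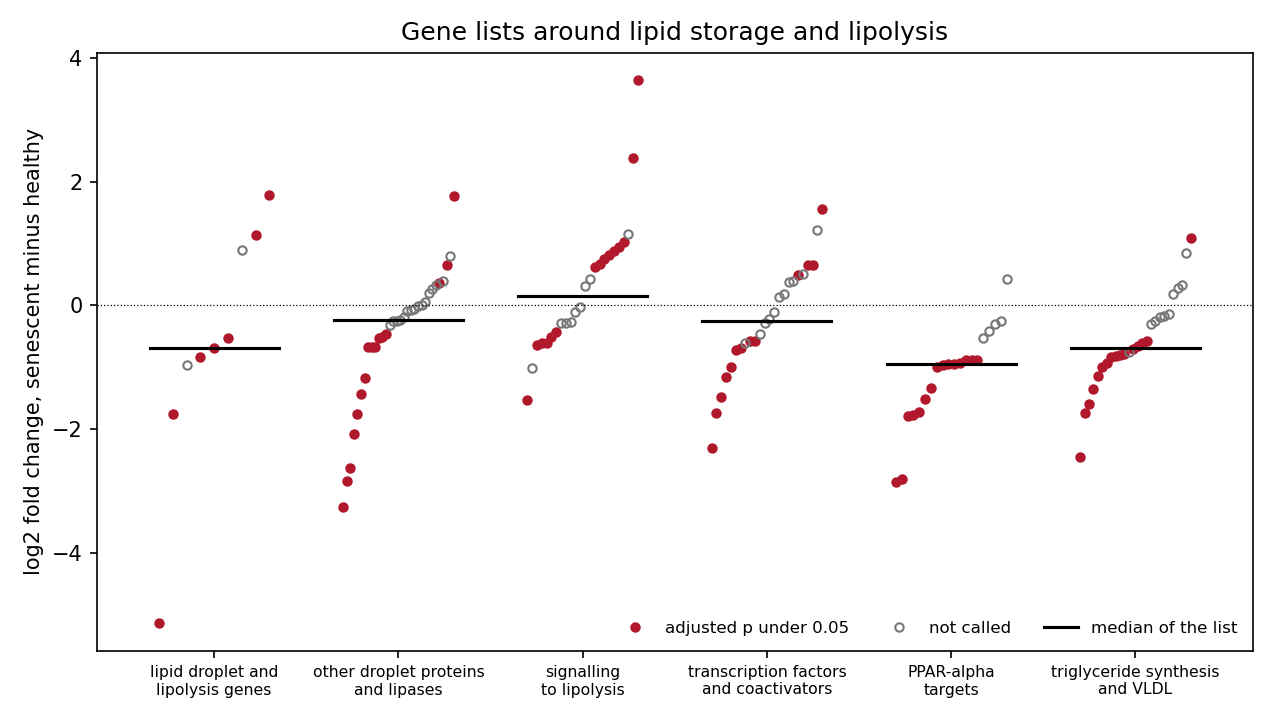
Log2 fold change (senescent minus healthy) of each tested gene in 6 lists, in order within a list, with filled points for an adjusted p under 0.05 and black bars at list medians. The PPAR-alpha targets have a median of -0.94 and the signalling genes one of 0.15. All 6 lists were chosen with earlier results of these data known, the first with this contrast in view.

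Markers of other cells were read beside these results. Among all tested genes 20.4% rose and 20.7% fell, the shares to set beside the marker counts. Of 9 fat cell markers, 4 (Lep, Retn, Plin1 and Ucp1) had 0 counts in every library, Adipoq had 0 senescent and 2 healthy counts, and Cfd had 2 senescent and 0 healthy counts. The list summed to 16.1 to 19.5 CPM in senescent and 3.32 to 6.15 CPM in healthy libraries, with Adrb3, which is also in the signalling list, as its largest part. Fabp4 had 1.20 to 1.70 CPM in senescent and 0.955 to 1.55 CPM in healthy libraries. Slc2a4, the insulin-responsive glucose transporter gene, had too few counts to test, with 7 senescent and 50 healthy counts (0.0579 to 0.0837 CPM in senescent and 0.283 to 0.934 CPM in healthy libraries), lower in senescent libraries without overlap. Macrophage markers summed to 242 to 488 CPM in senescent and 98.2 to 267 CPM in healthy libraries, and 2 of 12 rose and 0 fell. Stellate cell markers summed to 43.5 to 61.4 CPM in senescent and 15.8 to 28.2 CPM in healthy libraries, and 6 of 11 tested rose and 0 fell. Endothelial markers summed to 119 to 155 CPM in senescent and 100 to 125 CPM in healthy libraries, with 2 of 9 risen. Bile duct markers summed to 19.1 to 26.3 CPM in senescent and 12.0 to 16.6 CPM in healthy libraries, and 2 of 5 tested rose. Lymphocyte markers summed to 4.23 to 8.45 CPM in senescent and 1.56 to 4.61 CPM in healthy libraries, and 0 of 1 tested passed. Neutrophil markers summed to 2.06 to 2.10 CPM in senescent and 0.233 to 0.808 CPM in healthy libraries, and both tested rose. Red cell markers summed to 11.5 to 18.6 CPM in senescent and 11.3 to 12.1 CPM in healthy libraries, and 0 of 5 passed. No marker outside the fat cell list was at 0 in every library. Hepatocyte markers summed to 82350 to 95660 CPM in senescent and 136700 to 164300 CPM in healthy libraries, with 7 of 10 fallen and 0 risen. With total library size 10 of 12 macrophage, 7 of 11 stellate cell and 6 of 9 endothelial markers rose, and 4 of 10 hepatocyte markers fell. Under that scaling 4861 of all 12949 tested genes rose and 1285 fell. The part of these cells in the levels of the lipid genes was not tested.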

How the data were processed

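Polyadenylated RNA of 6 hepatocyte samples was sequenced from strand-specific libraries of 500 ng RNA with 10 cycles of PCR, per the labels' protocols. The authors deposited whole-number read counts per gene, not normalised. The submitters' processing notes name FastQC, MultiQC 1.3, cutadapt 1.16, STAR 2.7.1a, featureCounts, DESeq2 1.34.0 and the build GRCm38; for the annotation release, strand setting and filters nothing is given in the sources used here. One column name differs by a letter from the code of healthy replicate 2 and was taken as that sample. Symbols were matched for 31976 of 32061 IDs; coordinates and exonic lengths are from GENCODE M21 (GRCm38).

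Counts were tested with edgeR 4.0.16 in R 4.3.3 (quasi-likelihood F test, two-sided, filterByExpr with a minimum count of 10 and total of 15, TMM), with Benjamini-Hochberg adjustment across the 12949 genes tested and a threshold of 0.05. The SE is the log2 fold change over the square root of F. The test was checked on simulated counts. Members and lists were chosen with earlier results of these data known. Named genes were the members, Mdm2, Cdkn1a, up to 2 risen and 3 fallen genes of smallest p in each list, and the 5 most like G0s2; Plin1, Plin3, Ppara, single cell markers and genes that overlap members were added after their values were seen, and 1 gene that the rule names is not reported here. Alternatives were DESeq2 1.42.0, limma-voom (limma 3.58.1), other scalings, filters and thresholds, the replicate number as a block, and each library left out. The labels name no molecular identifiers, so intervals and floors cover counting error only. No library was a copy of another: chi-square over degrees of freedom was at least 46.4 in every pair.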

Additional observations from a re-analysis of the deposited data

How the results depend on the processing

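In 13 other fits (12 for Cidec, absent under a filter at a mean of 1 CPM), the log2 fold change of the members kept its direction: -5.82 to -4.80 for G0s2, -0.62 to -0.22 for Pnpla2, 1.64 to 2.10 for Abhd5, 1.02 to 1.45 for Lipe, -1.07 to -0.53 for Plin2, -1.31 to -0.45 for Plin4, -1.87 to -1.44 for Plin5, -0.76 to -0.38 for Cideb and 0.38 to 1.52 for Cidec. Their calls are a description, since this contrast chose them. The call was lost in 6 of 13 fits for Plin2 and in 3 of 13 for Pnpla2, and Plin4 gained one in 3 of 13. The 29 other named genes kept their direction in all and their side of the threshold in 370 of 377 fits. Over all genes 2644 rose and 2680 fell. With total library size 4861 rose and 1285 fell. At an adjusted p under 0.01, 1570 rose and 1498 fell, and 9 genes of other droplet proteins and lipases were called. With a 2-fold minimum, 1352 rose and 899 fell, and the calls were 4 members, 8 other droplet proteins and lipases, 4 signalling genes, 5 transcription factors, 7 PPAR-alpha targets and 6 triglyceride and VLDL genes. With single libraries left out, all falls ran from 1489 to 2789 (1489 without senescent replicate 3) and other droplet genes called from 10 to 17. The TMM factors were 1.07 to 1.15 in senescent and 0.893 to 0.909 in healthy libraries. Without them the median log2 fold change over all tested genes was 0.325 instead of 0.014. Why the factors differ between the groups was not tested, nor was the cause of the other shifts, beyond the stricter thresholds. A paired analysis with the replicate number as a block called 6 members and 2576 rises and 2625 falls. Same-numbered libraries had correlations of their deviations over genes of 0.23, -0.17 and -0.04. Differently numbered ones ran from -0.33 (senescent replicate 1, healthy replicate 3) to 0.38 (senescent replicate 2, healthy replicate 3). The numbers were therefore not taken as pairs. Cidea had too few counts to test at this depth.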

Other observations

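Which library was highest within its group differed between lists. Senescent replicate 1 was the highest senescent library for 18 of 20 PPAR-alpha targets, 5 of 9 tested members (G0s2, Plin2, Plin5, Cideb and Cidec), 14 of 32 other droplet protein and lipase genes, 11 of 24 signalling genes, 11 of 24 transcription factor genes and 10 of 26 triglyceride and VLDL genes, against 34.1% of all tested genes. Healthy replicate 3 was the highest healthy library for 13 of 20 PPAR-alpha targets, 5 of 9 members (G0s2, Pnpla2, Plin2, Plin4 and Cidec), 10 of 32 other droplet protein and lipase genes, 8 of 24 signalling genes, 13 of 24 transcription factor genes and 7 of 26 triglyceride and VLDL genes, against 33.4% of all tested genes. Genes of 1 library share its RNA and are not independent, and these counts, which carry no test, were made after the values had been seen.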
